A study of Homo sapiens with 2 samples.

Results

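The genes described here make, bind and degrade hyaluronan. They comprise 3 synthases (HAS1, HAS2 and HAS3), 3 receptors (CD44, HMMR and LAYN), 3 hyaluronidases (HYAL1, HYAL2 and HYAL3) and the cell-surface degrading protein CEMIP2, long called TMEM2. Members were taken as the probe sets whose single gene symbol in the platform annotation is one of these 10 names, and probe sets of 1 gene were averaged. Of the 10 genes, 7 were measured, by 8 probe sets, among 18417 named genes in all. HAS1, HYAL1 and HYAL3 had no probe set named for them alone and were not analysed here. The genes were chosen by a rule that uses these same log2 values and their difference between the arrays, with that difference already known, so the values below are descriptions and no test supports them.

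RNA was precipitated with an anti-Ago2 antibody from A549, a long-established cell line of human lung adenocarcinoma, and hybridised to whole-transcript Affymetrix arrays. Argonaute2 (Ago2) is the effector protein loaded with microRNAs, which guide it to mRNAs. There were 2 groups of 1 array each: A549 cells transfected with an empty vector, and A549 cells overexpressing miR-130b. The comparison asked which mRNAs the Ago2 antibody brought down in larger amounts after miR-130b was raised. Both groups are the same cell line, and the labels give neither the vector, the dose nor the time after transfection. With 1 array per group there was no replicate error and no p-value. Every difference below is the log2 value of the miR-130b array minus that of the empty-vector array.

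Hyaluronan is a long, unsulphated sugar chain of the extracellular matrix. It is polymerised at the plasma membrane by the HAS enzymes from UDP-glucuronate and UDP-N-acetylglucosamine and extruded as it grows. Cells bind it through CD44 and other receptors, and secreted proteins cross-link it into a pericellular coat. Hyaluronidases and lysosomal glycosidases break it down, and in the lung the polymer accumulates during injury, remodelling and tumour growth.

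MicroRNAs pair with mRNAs mainly through their seed, bases 2 to 8. The overexpressed microRNA is shown here because its seed defines the mRNAs it could bring into the precipitate, and the microRNAs of the same seed because they could bring in the same ones. The mature miR-130b-3p is encoded at chr22:21653354-21653375 (GRCh38.p14, plus strand), and the sequences are those of RefSeq, 5′ to 3′, with the seed in capitals.
hsa-miR-130b-3p: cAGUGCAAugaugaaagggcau
hsa-miR-130b-5p: aCUCUUUCccuguugcacuac
hsa-miR-301a-3p: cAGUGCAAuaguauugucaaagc
hsa-miR-301b-3p: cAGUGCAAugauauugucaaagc
hsa-miR-454-3p: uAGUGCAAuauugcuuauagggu
Of 2370 mature microRNA names in that table, 6 carry the seed AGUGCAA of miR-130b-3p, and the 4 printed with it differ in the bases after the seed. The matches not printed are miR-3666 and miR-4295. The count covers only the names searched and may be incomplete, since the related miR-130a-3p is not among the 6. The opposite strand, miR-130b-5p, has another seed. A perfect seed match to miR-130b-3p in an mRNA reads TTGCACT. The mRNAs of the hyaluronan genes were not searched for it, because transcript sequences were not used here.

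The arrays were alike over 33297 probe sets, with medians of 7.77 on the log2 scale on both. Genes were kept for counting where their mean over both arrays reached 8.64, the median such mean among named genes, and 9209 genes passed. Their median difference was 0.010. The probe set of MIR130B, the microRNA's own gene, read 6.66 on the empty-vector array and 12.64 on the miR-130b array, as the labels have it, while AGO2 differed by 0.25. Among markers of lung epithelium, KRT8 (13.38 and 13.48) and KRT18 (13.22 and 13.19) were bright on both arrays. Of the 6 kept markers of the 9 listed, 3 were higher and 3 lower with miR-130b, where 51.5% of all kept genes were higher. Of the 6, 2 were at least 2-fold lower, where 1.60% of all kept genes were. These were CDH1 (2.17-fold) and the lamellar-body transporter ABCA3 (2.05-fold). KRT19 was 1.29-fold and MUC1 1.33-fold higher. The lung lineage factor NKX2-1 (6.50 and 6.43) and the adhesion molecule EPCAM both lay under the 95th percentile of 361 olfactory receptor genes. That percentile was 7.16 on the empty-vector array and 7.23 on the miR-130b array. It serves below as a rough mark of background signal, since no detection calls are given. A value below it means little of that RNA in the Ago2 precipitate, and expression in the cells was not measured.

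HAS2 stood apart from the rest of the hyaluronan genes. Its log2 value was 8.78 on the empty-vector array and 11.19 on the miR-130b array, which is 2.41 apart or 5.30-fold. It was the 1 kept member past the 2-fold threshold on the higher side, and 0 of the 6 kept members were at least 2-fold lower. The background was 1.32% of kept genes on the higher side of that threshold and 1.60% on the lower side. The members were listed with this contrast known, so nothing is read from their counts. In bulk RNA, more cells expressing a gene, more of its mRNA per cell and a larger share bound to Ago2 cannot be told apart.

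**Figure D1:**
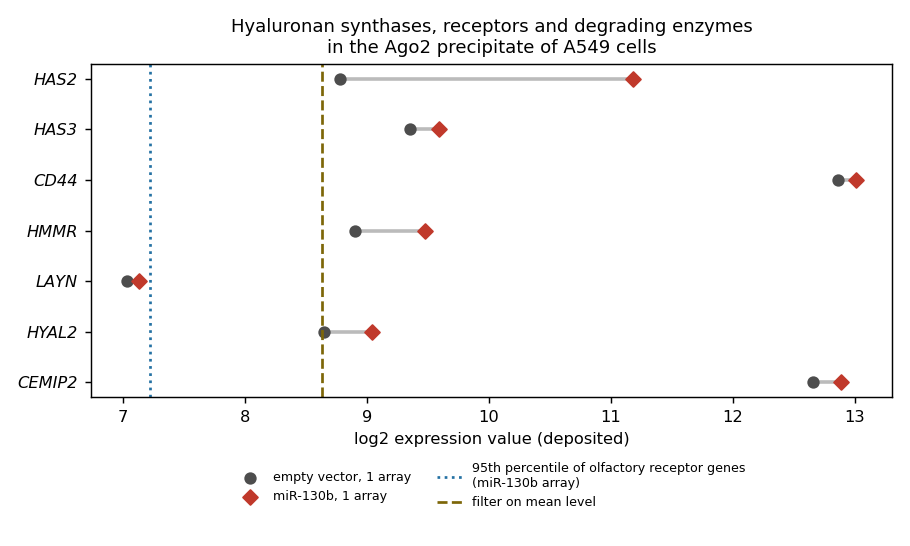
Deposited log2 values (horizontal axis) of the 7 measured hyaluronan genes on the empty-vector array (grey circles) and the miR-130b array (red diamonds), 1 array each; the dotted line is the 95th percentile of olfactory receptor genes on the miR-130b array and the dashed line the filter on mean level. HAS2 moves from 8.78 to 11.19, HMMR from 8.91 to 9.47, and LAYN lies left of both lines.

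HAS2 encodes the synthase that makes the bulk of hyaluronan in development and in most mesenchymal cells. Of all 9209 kept genes, its difference was the 8th largest. HAS2 was also set among the 921 kept genes of the same decile of mean level, from 9.66 to 10.01. Of these, 1.95% passed the threshold upward and 2.28% downward, and HAS2 ranked 2nd from the top. That mean includes the raised miR-130b value, and the empty-vector value of HAS2, 8.78, lay below the decile. The decile therefore does not match array noise at the lower value, and the rank only describes the same 2 values again. A single probe set measured the gene, so agreement between different probe sets could not be examined. Its antisense transcript HAS2-AS1, which overlaps it, had no probe set named for it.

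Genes with a pattern like that of HAS2 were found by distance in the plane of the 2 log2 values, over 8981 other kept protein-coding genes. The nearest was NR4A2, an orphan nuclear receptor and immediate early gene, at a distance of 0.25, with 8.59 on the empty-vector array and 11.02 with miR-130b. Next came HMCN1, which encodes the matrix protein hemicentin, at a distance of 0.33 (8.73 and 10.86). The third was SHC3, a signalling adaptor, at 0.45 (8.89 and 10.75). The distances of the genes nearest to CD44 and HMMR, given below, were smaller.

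HAS3, the synthase typical of epithelial cells, differed far less than HAS2. Its log2 value was 9.35 on the empty-vector array and 9.59 on the miR-130b array, 0.24 apart or 1.18-fold. The difference of HAS2 exceeded that of HAS3 by 2.17 on the log2 scale. Different probe sets of 1 gene disagreed in their difference with a pooled SD of 0.16 (356 genes), which covers probes within these arrays and not cultures or precipitations. The difference of HAS3 was 1.45 such SDs and that of HAS2 was 14.76. HAS3 overlaps CHTF8 and TANGO6 in the RefSeq annotation, and these differed by -0.10 and -0.098.

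Fibroblasts are a common source of HAS2, so markers of other cell types were read beside it. All 10 fibroblast markers were higher with miR-130b, by 0.091 to 1.71, although 1 of them (COL1A1) passed the filter. Of all named genes without a filter, 58.6% were higher. The summed log2 value of the fibroblast markers was 65.9 on the empty-vector array and 70.5 on the miR-130b array. A sum of log2 values is not a total of signal and weighs background genes like expressed ones. Here 9 of the 10 lay below the filter, and the largest difference, 1.71, was that of FAP. COL1A1 (8.74 and 9.05), COL1A2 (7.72 and 7.86), COL3A1 (7.34 and 7.66), LUM (7.21 and 7.68) and THY1 (7.47 and 8.07) lay above the olfactory 95th percentile on both arrays. No marker was at 0, as array values never are, and DCN (4.46 and 4.55) and POSTN (4.70 and 4.89) lay below the olfactory receptor median on both arrays (5.77 and 5.86). FAP, a protease of activated fibroblasts, went from 5.26 to 6.97, below the olfactory 95th percentile on both. The 6 measured leukocyte markers summed to 43.9 and 43.0, and the 5 endothelial markers to 34.1 and 35.4. Within these sums CD68 was 2.27-fold lower and ITGAM 1.58-fold lower, while CD14 was 1.55-fold higher and KDR 1.64-fold higher. Both samples are labelled as A549 cells, a single line, so these markers do not measure a mixture of cell types as they might in tissue. Whether any other cells were present was not tested.

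The receptors differed little between the arrays, apart from HMMR. CD44, the main cell-surface receptor for hyaluronan, was bright on both arrays (12.86 and 13.01, empty vector first). That difference of 0.15 or 1.11-fold was 0.92 SDs between probe sets and lay at the 69.6th percentile of kept genes. CD44 is spliced into many isoforms, and its single probe set does not separate them. The kept protein-coding genes nearest to CD44 in both values were FADS1, a fatty acid desaturase, ABCC1, a drug efflux pump, and YWHAB, a 14-3-3 protein, at distances of 0.0085, 0.023 and 0.028.

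LAYN encodes layilin, a lectin-like membrane receptor that binds hyaluronan outside the cell and talin inside. It had 2 probe sets, reading 6.79 and 7.28 on the empty-vector array, and 6.92 and 7.34 on the miR-130b array. Their differences were 0.13 and 0.059, with a mean of 0.093. The gene's averaged values of 7.04 and 7.13 lay below the filter and under the 95th percentile of olfactory receptor genes. The brighter probe set on its own lay just above that mark on both arrays, and the dimmer one below it.

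HMMR, also called RHAMM, binds hyaluronan at the cell surface and associates with the mitotic spindle inside the cell. It read 8.91 on the empty-vector array and 9.47 on the miR-130b array, 0.57 apart or 1.48-fold, 3.48 SDs between probe sets. It lay at the 94.7th percentile of kept genes. The nearest kept protein-coding genes were SAMD9, RIN1 and MXD4, at distances of 0.020, 0.025 and 0.042.

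HMMR is expressed mainly in G2 and mitosis, so it was placed among 25 listed genes of those phases, of which 24 were measured. All 24 were higher with miR-130b, including BIRC5, which was below the filter, against 51.5% of all kept genes higher. Of these 24, 12 had a larger difference than HMMR and 12 a smaller one. Their kept members ran from 0.12 for CDC20, the activator of the anaphase-promoting complex, to 1.22 for CENPE, a kinetochore motor, with a median of 0.66. The difference of HMMR lay in the middle of its cell-cycle company, whereas that of HAS2 lay above all of it. Whether the cell-cycle makeup of the cultures differed was not measured.

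**Figure D2:**
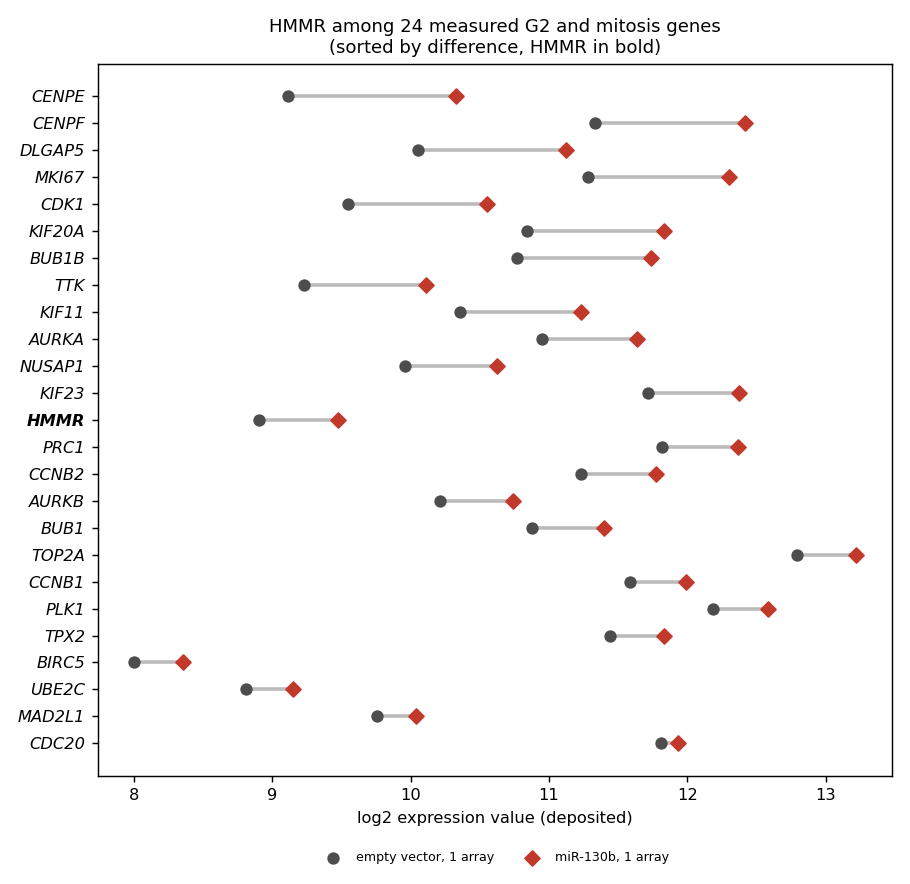
Deposited log2 values (horizontal axis) of HMMR and 24 G2 and mitosis genes on the empty-vector array (grey circles) and the miR-130b array (red diamonds), sorted from the largest difference to the smallest. HMMR sits 13th of 25, between KIF23 and PRC1, and every red diamond lies to the right of its grey circle.

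HYAL2 and CEMIP2 are held to start the breakdown of hyaluronan at the cell surface. HYAL2, a hyaluronidase held in the membrane by a lipid anchor, read 8.65 on the empty-vector array and 9.04 on the miR-130b array. That difference of 0.39 or 1.31-fold was 2.40 SDs between probe sets. Its mean level of 8.85 was close to the filter of 8.64, where array background can hide part of a change. The same holds for the empty-vector values of HAS2 (8.78) and HMMR (8.91). All of these genes lay above the olfactory 95th percentile on both arrays. CEMIP2, a transmembrane protein described as a cell-surface hyaluronidase, was at 12.66 and 12.89, a difference of 0.23 or 1.17-fold and 1.43 SDs.

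Set side by side, the differences of the 7 measured members were all above 0, from 0.093 for LAYN to 2.41 for HAS2, where 51.5% of kept genes and 58.6% of all named genes were above 0. They kept that sign after centring, quantile normalization and cyclic loess. The median of the 6 kept members was 0.31 against 0.010 over all kept genes, and without HAS2 the other 5 ran from 0.15 to 0.57 with a median of 0.24. Of the 6, 3 (HAS2, HMMR and HYAL2) were more than 2 SDs between probe sets above 0, where 14.2% of all kept genes were. HAS3, CD44 and CEMIP2 were not.

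**Figure D3:**
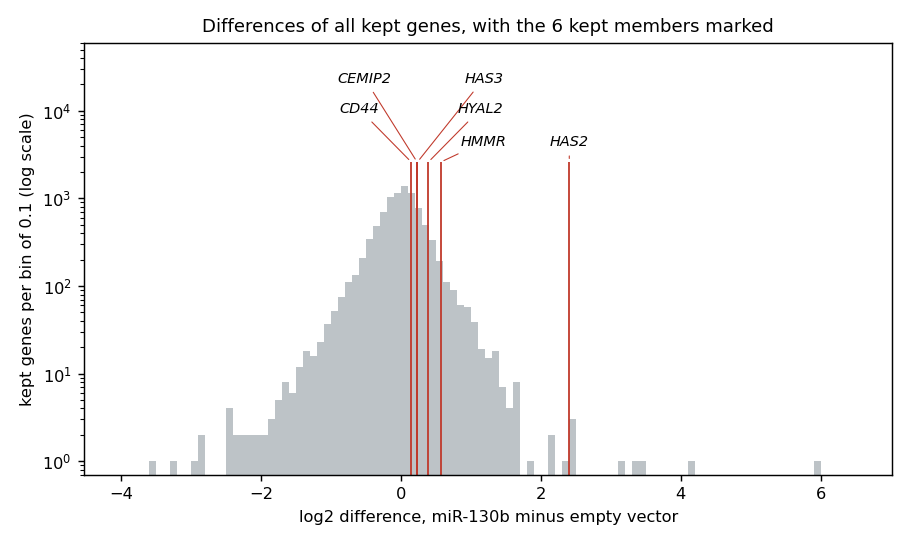
Number of kept genes (vertical axis, log scale) in bins of 0.1 of the log2 difference, miR-130b minus empty vector (horizontal axis), for 9209 genes, with red lines at the 6 kept hyaluronan genes. HAS2, at 2.41, lies in the sparse upper tail, while the other 5 lie between 0.15 and 0.57, the highest of them, HMMR, at the 94.7th percentile.

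The rest of the pathway was followed through 52 further genes in 5 lists, of which 47 were measured and 22 kept. At 2-fold, 0 of the 22 were higher and 1, PTX3, was lower. At 1.5-fold, 0 were higher and 5 lower, where the background was 5.04% of kept genes higher and 5.87% lower. HABP2, among these 5, passed the filter only through its empty-vector value. The 22 had a median difference of -0.11, with 10 higher and 12 lower, where 51.5% of all kept genes were higher. The largest kept increase among them was 0.45, for HK1, and the largest decrease was -2.18, for PTX3.

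Genes of precursor supply went both ways. Of 8 kept genes, 3 were higher and 5 lower, with a median of -0.18, where 51.5% of all kept genes were higher. UGDH, which makes the UDP-glucuronate used by the synthases, was equal on both arrays, at 13.52 and 13.52. The 3 measured enzymes of the hexosamine route to UDP-N-acetylglucosamine were lower. GFPT1, which commits fructose-6-phosphate to hexosamines, went from 13.24 to 12.47, 1.70-fold lower. GNPNAT1, the acetyltransferase that follows, differed by -0.32, and UAP1, which forms the UDP-sugar, by -0.41. The hexokinases, which feed both precursors, differed in opposite directions, with HK1 at 0.45 and HK2, just below the filter, at -0.79 (8.98 and 8.19).

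Of 18 measured genes for proteins that bind hyaluronan in the matrix, 11 were higher and 7 lower with miR-130b, with a median of 0.064. Of all named genes, 58.6% were higher, so these counts are near the background. The 5 kept genes had a median of -0.63, and 3 of the 5 were at least 1.5-fold lower, where 5.87% of all kept genes were. PTX3, the pentraxin that helps cross-link the hyaluronan coat, went from 10.92 with the empty vector to 8.74 with miR-130b, 4.54-fold lower. HABP2, a plasma serine protease named for binding hyaluronan, went from 9.25 to 8.35, 1.88-fold lower. It passed the filter of 8.64 on the mean level only through its empty-vector value. VCAN, which encodes the large hyaluronan-binding proteoglycan versican, went from 12.04 to 11.40, 1.55-fold lower. The kept members HAPLN4 and C1QBP differed by 0.064 and 0.065. Below the filter, ITIH2, a heavy chain of the inter-alpha-inhibitor that is transferred onto hyaluronan, read 8.96 with the empty vector and differed by -0.96. The link protein HAPLN3, also below the filter, differed by 0.56 (7.82 and 8.38). TNFAIP6, which catalyses that transfer, was under the olfactory 95th percentile on both arrays (7.05 and 6.82).

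Of the 5 other receptors, 4 were not distinguishable from background. None of LYVE1, STAB1, STAB2, TLR2 and TLR4 passed the filter, and 4 of the 5 lay under the olfactory 95th percentile on both arrays, with STAB1 (7.51 and 7.60) as the exception. Their differences ran from 0.021 for TLR2 to 0.33 for LYVE1.

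Among the other degrading enzymes, the lysosomal glycosidases HEXA and GUSB, which trim hyaluronan fragments to sugars, were kept. They differed by -0.27 and -0.093. CEMIP, the secreted relative of CEMIP2 that drives hyaluronan breakdown in fibroblasts, was below the filter but went from 7.07 to 7.93, 1.80-fold higher. Its lower value was under the olfactory 95th percentile, so this fold is uncertain. The sperm hyaluronidase SPAM1 and the listed gene HYAL4 were at or below 4.91 on both arrays.

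CD44 works with cytoskeletal linkers and is cut by membrane proteases. Of 7 kept genes in that list, 5 were higher and 2 lower, with a median of 0.073, where 51.5% of all kept genes were higher. MSN, moesin, which ties CD44 to actin, differed by 0.43 (12.63 and 13.06). ADAM17, a protease that sheds membrane proteins, went from 12.09 to 11.38, 1.63-fold lower, while ADAM10, which also sheds CD44, differed by 0.073. The linker EZR shares its probe set with another symbol and was not analysed as a single gene.

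**Figure D4:**
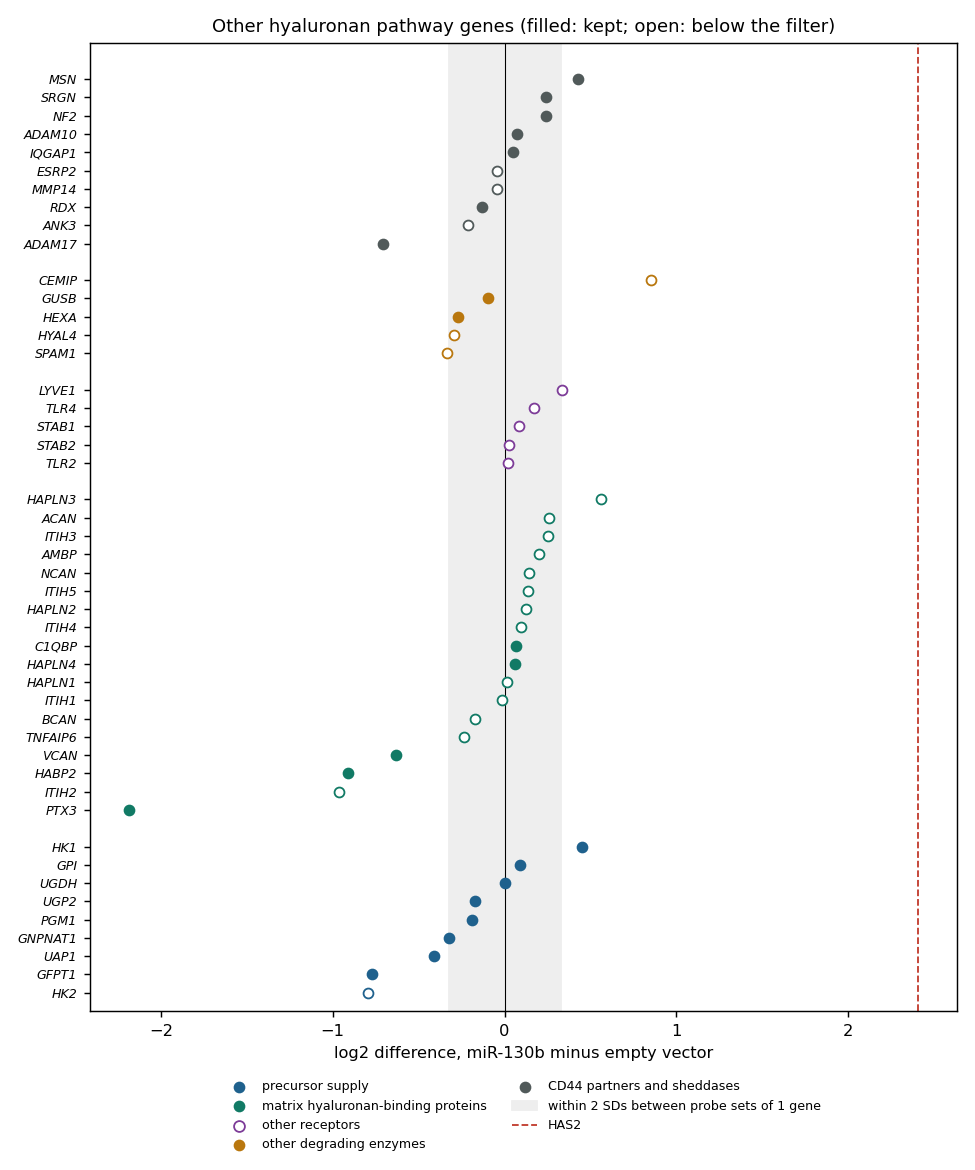
Log2 difference, miR-130b minus empty vector (horizontal axis), of 47 measured hyaluronan pathway genes in 5 lists (colours), filled where the gene was kept and open where it was below the filter; the grey band is within 2 SDs between probe sets and the dashed line marks HAS2. PTX3 lies farthest to the left at -2.18, and none of the 47 reaches HAS2 at 2.41.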

How the data were processed

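RNA precipitated with an anti-Ago2 antibody from 2 A549 samples was profiled on 1 array each. The labels' extraction protocol describes excised tissue, so how this RNA was purified is uncertain. The deposited file holds a log2 value for each probe set, from 1.95 to 14.2; the scale was inferred from that range, while software and normalization are not stated in the labels. The near-equal medians are what a between-array normalization gives, so differences are relative to other probe sets. Direction follows the labels and values were not centred per gene.

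Of 33297 probe sets, 19460 had 1 gene symbol in the platform annotation, 1754 several (left out) and 12083 were unnamed here. Of the 19460, 19429 had a gene identifier found in RefSeq and took its current symbol, whether or not that differed. Probe sets of a gene were averaged. Genes with a mean at or above the median (8.64) were kept. With 1 array per group no test was run; genes were counted at 2-fold, and the counting was tested on simulated data. The deposited file names no genome build, so no coordinates are given for the genes measured; that of miR-130b-3p is from the RefSeq table.

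The members and lists were chosen with earlier results of these data known. Named genes were all members, kept pathway genes at least 1.5-fold apart, the largest kept change each way in every pathway list, and the 3 genes nearest to HAS2, CD44 and HMMR. Added after their values were seen were UGDH, GNPNAT1, UAP1, HK2, HAPLN3, HAPLN4, ITIH2, TNFAIP6, GUSB, ADAM10, EZR, CEMIP, SPAM1, HYAL4, the receptors, the marker and mitosis genes named, and genes next to members. Alternatives were centring, quantile normalization, cyclic loess, the brightest probe set, other filters, 1.5-fold and the mean. Python 3.11.15, pandas 2.3.3, R 4.3.3 and limma 3.58.1 were used. The number of arrays limits the precision.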

Additional observations from a re-analysis of the deposited data

How the results depend on the processing

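With no replicates, a difference was taken as moved where it changed by more than 0.16, the pooled SD over probe sets. None of the 7 member differences moved by that much or changed sign under centring, quantile normalization, cyclic loess or the brightest probe set. HAS2 ran from 2.35 to 2.44, and LAYN from 0.036 to 0.13 with each of its probe sets alone included, an alternative added after seeing the data. With the filter at the 75th percentile (10.34), 2 members were left and HAS2 was not among them, so the count of members at least 2-fold higher was 0 and that of pathway genes at least 2-fold lower was 0. At 1.5-fold, 5 pathway genes were lower. The mean of the 6 kept members was 0.66, against a median of 0.31, and with HAS2 left out their median was 0.24. Without a filter, the median of the pathway genes was 0.012 in place of -0.11, over 47 genes in place of 22. Counts over all genes were 40 higher and 60 lower at the 75th percentile, 196 and 252 without a filter, and 464 and 541 at 1.5-fold, against 122 and 147. Centring moved the share of kept genes above 0 from 51.5% to 43.4%. No paired analysis was possible because each group had 1 array.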

Other observations

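The sulphated glycosaminoglycans, which are built on core proteins in the Golgi rather than at the plasma membrane, gave a comparison for the hyaluronan synthases. Their 34 genes were listed after the data had been seen, and 33 were measured, 25 of them kept, with a median difference of 0.13. In this list 1 kept gene passed the 2-fold threshold upward and 1 downward. HS6ST1, a sulphotransferase of heparan sulphate, went from 10.40 to 11.56, 2.23-fold higher. CSGALNACT2, which starts and extends chondroitin sulphate chains, went from 11.08 to 9.85, 2.33-fold lower. Over all kept genes 1.32% passed it upward and 1.60% downward, and 51.5% were higher. All 8 kept heparan sulphate genes were higher, from 0.021 for HS2ST1 to 1.16 for HS6ST1, with EXTL3, a chain-initiating enzyme, at 0.63. Of the 14 measured, 3 were lower. Of 13 kept chondroitin sulphate genes, 7 were higher and 6 lower. None of the 33 differed by as much as HAS2.

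The genes on either side of HAS2 went the other way. By RefSeq gene order its protein-coding neighbours are SNTB1, a syntrophin, and ZHX2, a zinc-finger and homeobox repressor. SNTB1 went from 11.63 with the empty vector to 10.71 with miR-130b, 1.90-fold lower, and ZHX2 from 10.34 to 9.65, 1.62-fold lower. Of all kept genes, 5.87% were at least 1.5-fold lower. HAS3 lies next to CDH1, which encodes E-cadherin and went from 12.61 to 11.49, 2.17-fold lower, while the neighbour on its other side, UTP4, differed by -0.16. The measured neighbours of HMMR differed by 0.031 (MAT2B) and -0.016 (NUDCD2), against 0.57 for HMMR itself. Beside other members, neighbours differed by more than the member. Those of CD44 (0.15) differed by 0.36 (PDHX) and 0.46 (SLC1A2, below the filter). Those of LAYN (0.093) differed by 0.37 (SIK2) and 0.25 (HOATZ, below the filter). For CEMIP2 (0.23) they were ABHD17B at 0.36 and TRPM3, below the filter, at 0.0. The neighbours of HYAL2 were not measured.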
